A study of Rattus norvegicus with 40 samples.

Results

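Red blood cell miRNAs are miRNAs that circulating erythrocytes and their precursors hold in large amounts. Here 8 arms of such miRNAs, rare ones included, were followed in the plasma of rats after traumatic brain injury (TBI). Members were the rows of the raw count matrix with the stem rno-miR-451, rno-miR-144, rno-miR-486, rno-miR-16 or rno-miR-185 and any arm suffix. The rule found 8 of 752 miRNAs, namely rno-miR-451-5p, rno-miR-451-3p, rno-miR-144-5p, rno-miR-144-3p, rno-miR-16-5p, rno-miR-16-3p, rno-miR-185-5p and rno-miR-185-3p, which are written without the species prefix from here on. Rows with the stem rno-miR-486 were looked for and 0 were found, so that stem was not analysed here. All 8 members had reads on both days.

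A miRNA is cut from a hairpin precursor, an arm of which is usually kept and loaded into an Argonaute protein, where bases 2 to 8 (the seed) select target mRNAs. miR-451 and miR-144 come from neighbouring hairpins of 1 locus that is switched on by the erythroid factor GATA1, and both accompany red cell maturation. miR-451 is cut by Ago2 without Dicer and builds up in mature red cells, which is why it serves as a marker of haemolysis in plasma, and miR-16, like miR-185, is found in red cells as well as in many other cells.

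The study took tail-vein plasma from 20 male Sprague-Dawley rats, 2 days (D2) and 9 days (D9) after surgery, and sequenced 1 small RNA library per rat and day, 40 in all. The 4 sham-operated rats had the craniotomy without the impact, and the 16 TBI rats had lateral fluid-percussion injury. Of the TBI rats, 7 had developed epilepsy by the video-EEG of the sixth month (TBI+) and 9 had not (TBI−), and that outcome lay months after the plasma was taken. Aliquots of 1 rat and day were pooled before RNA extraction, and the study inspected the plasma for haemolysis by eye and by haemoglobin absorbance. In plasma, a release from more red cells and more miRNA per red cell cannot be told apart.

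The mature sequences of the 8 members are shown because the arms of each hairpin carry different seeds. They are the RefSeq sequences (build GRCr8), written 5′ to 3′ with the seed in capitals.
miR-451-5p: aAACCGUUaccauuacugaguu
miR-451-3p: aUGGUAAUgguucucuugcugcu
miR-144-5p: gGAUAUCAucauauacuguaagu
miR-144-3p: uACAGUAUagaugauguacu
miR-16-5p: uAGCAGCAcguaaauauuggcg
miR-16-3p: aCCAAUAUuauugugcugcuu
miR-185-5p: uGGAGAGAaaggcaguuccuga
miR-185-3p: uUUCCUCUgguccuucucu
Only miR-16-5p shared its seed with other miRNAs of the matrix, namely with 4 of them. The seeds of the other 7 members were found in no other row with a RefSeq sequence.

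The family of miR-16-5p is shown because 1 of its members, miR-15b-5p, comes back below among the miRNAs whose levels were most like that of miR-451-5p. The capitals are again the seed.
miR-15b-5p: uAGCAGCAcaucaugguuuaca
miR-195-5p: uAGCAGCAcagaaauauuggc
miR-322-5p: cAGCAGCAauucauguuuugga
miR-497-5p: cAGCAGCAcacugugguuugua
In the RefSeq annotation the genes of miR-16 and miR-15b are neighbours within the gene Smc4, that of miR-185 lies within Tango2, and Mir144 and Mir451a are neighbours next to Eral1.

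Levels are given in CPM, the reads of a miRNA per 1000000 miRNA reads of its library. The D2 libraries held 404542 to 2562083 reads. On D9 the TBI libraries held 332161 to 2864893 reads and the sham libraries 140636 to 358202, so that 3 reads, taken as the floor of detection, were worth 8.38 to 21.3 CPM in a D9 sham library. The library numbers in the labels fall into 3 runs, whose meaning the study does not state. The sham libraries of a day shared their run with those of TBI+ rats 1 to 4 only.

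The members together took 2.59 ± 0.434% of the miRNA reads of the 4 sham rats and 2.79 ± 0.958% of those of the 16 TBI rats on D2 (mean ± SD). By D9 the share was 2.87 ± 1.56% in the sham and 4.20 ± 1.56% in the TBI group. Most of it was miR-16-5p, which ranked 10th of 565 detected miRNAs on D2 with a mean over the 20 libraries of 23672 CPM and 9th of 541 on D9 with 32966 CPM. Second among the members was miR-451-5p, 41st on D2 at 3231 CPM and 32nd on D9 at 5326 CPM. The arms of miR-144 followed, miR-144-3p at 278 and 572 CPM and miR-144-5p at 266 and 350 CPM on D2 and D9. These arms did not differ in level beyond their spread on D2, where miR-144-5p was at 270 ± 123 CPM and miR-144-3p at 268 ± 143 CPM in the TBI rats (SD, n = 16).

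The 4 remaining arms were rare. On D2, the means over 20 libraries were 14.6 CPM for miR-16-3p, 9.06 for miR-185-3p, 5.34 for miR-451-3p and 2.65 for miR-185-5p, and on D9 they were 23.2, 16.7, 11.4 and 85.9 CPM. The last value came from 1 library, described below. Reads per library ran from 0 to 106 for miR-16-3p, from 2 to 70 for miR-185-3p, from 0 to 60 for miR-451-3p and, outside that library, from 0 to 21 for miR-185-5p. In D9 sham libraries, where 3 reads were worth at least 8.38 CPM, levels of these arms lay near the floor, that 1 library of miR-185-5p apart.

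The hairpins of miR-451 and miR-16 gave nearly all their reads from the 5p arm. In TBI rats on D2, 99.8 ± 0.144% of the miR-451 reads and 99.9 ± 0.0355% of the miR-16 reads were 5p (SD, n = 16). For miR-185 the 3p arm prevailed, with 24.5 ± 14.7% of reads from 5p (SD, n = 16). Only miR-144 had both arms at like levels, with 51.0 ± 9.81% of reads from 5p in the same libraries (SD, n = 16).

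**Figure D1:**
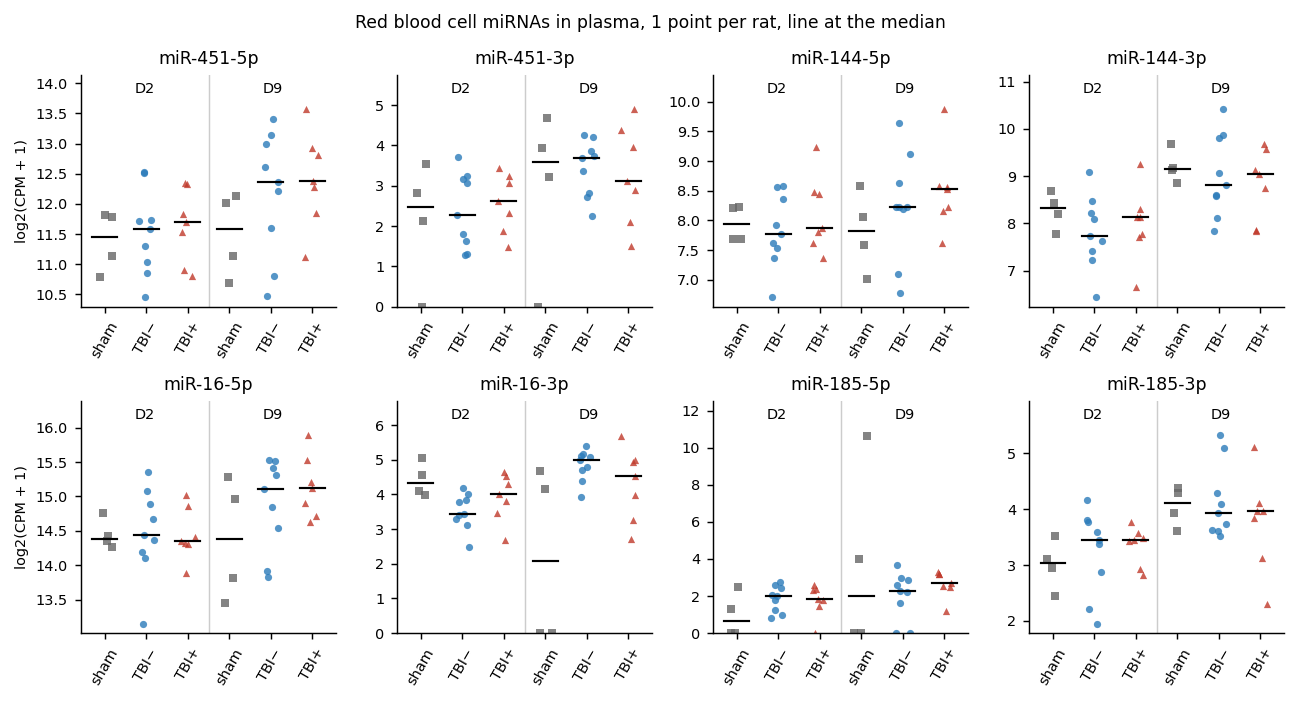
Levels of the 8 red blood cell miRNAs as log2(CPM + 1) in 4 sham (squares), 9 TBI− (circles) and 7 TBI+ (triangles) rats on D2 (left of each panel) and D9 (right), with 1 point per rat and a line at the group median. The groups overlap in every panel, and the highest miR-185-5p point is sham rat 2 on D9.

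The first question was whether the injury changed these miRNAs on D2. None of the 8 passed the test for TBI against sham rats (edgeR's quasi-likelihood test, Benjamini-Hochberg adjusted p under 0.05), where 6.19% of all 565 miRNAs tested did. At an unadjusted p under 0.05 there were 0 members beside 18.2% of all miRNAs, and with DESeq2 0 beside 8.14%. The lowest adjusted p of a member was 0.424, for miR-16-3p.

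miR-451-5p stood at 3594, 2247, 1771 and 3522 CPM in sham rats 1 to 4 on D2. In TBI rats the lowest value was 1400, the median 3206 and the highest 5891 CPM. The groups overlapped, with 10 of 16 TBI rats inside the sham range and 5 above it (log2 fold change 0.41, SE 0.31, edgeR adjusted p = 0.462).

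miR-16-5p was at 27678, 19721, 20830 and 21941 CPM in the sham rats and between 9108 and 41846 CPM in TBI rats, with a median of 21499. The ranges overlapped (log2 fold change 0.23, SE 0.25, edgeR adjusted p = 0.650). For the other members the D2 log2 fold changes were 0.15 (SE 0.60) for miR-451-3p, 0.23 (SE 0.28) for miR-144-5p, −0.13 (SE 0.32) for miR-144-3p and −0.54 (SE 0.35) for miR-16-3p. The arms of miR-185 had 0.95 (SE 0.72) for 5p and 0.45 (SE 0.41) for 3p, and without sham rat 4 the former was 2.71 (SE 1.06, edgeR adjusted p = 0.1495). The median over the 8 members was 0.23, beside 0.09 over all miRNAs tested.

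On D9, 1 of the 8 members was called between TBI and sham rats, where 3.51% of 541 miRNAs were called in either direction. This was miR-185-5p, which was lower in TBI rats. miR-451-5p and miR-16-3p also reached an unadjusted p under 0.05, as did 15.9% of all miRNAs, and failed the correction. The median log2 fold change was 0.44 over the members and 0.30 over all miRNAs tested, and the latter moved to 0.09 when libraries were scaled by miR-28-3p, with which miR-451-5p had 0.77 (SE 0.53).

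miR-451-5p stood at 2247, 4151, 1653 and 4481 CPM in sham rats 1 to 4 on D9. The TBI rats ran from 1414 through a median of 5286 to 12197 CPM. Of the 16 TBI rats, 11 lay above all sham rats, 4 within their range and 1 below (log2 fold change 1.03, SE 0.45, edgeR adjusted p = 0.2505). TBI− rats 2 and 4 had the shallowest D9 libraries of the TBI rats and also the lowest miR-451-5p, 1797 and 1414 CPM. Leaving them out was bound to raise the estimate. The pass that followed (log2 fold change 1.16, edgeR adjusted p = 0.0411) is therefore no separate support. In that fit 53 of 540 miRNAs were called, where 19 of 541 were called with all rats. With the library total as a term in the fit, miR-451-5p turned to −0.97 (SE 0.54, edgeR adjusted p = 0.544). The D9 totals of the groups overlapped only between 332161 and 358202 reads, so that fit cannot tell group and depth apart. Within the run of library numbers that held all sham rats and 4 TBI+ rats miR-451-5p was 0.60 (SE 0.39, edgeR adjusted p = 0.679).

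The depth differed between these groups on D9, and miR-451-5p moved with it. Among the 16 TBI rats, the level of miR-451-5p and the library total had r = 0.70 (adjusted p = 0.00520) and rho = 0.632 (adjusted p = 0.0204) on D9, by permutation tests adjusted over the 2 days. Without the 2 rats farthest from the median of miR-451-5p, r fell to 0.486, and within the 8 TBI libraries of 1 run it was 0.842. On D2 the same relation had r = 0.264 and rho = 0.291 (adjusted p = 0.321 and 0.272, permutation tests).

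The dominant arm of miR-16 showed a like picture on D9. miR-16-5p was at 14413, 39772, 11205 and 31820 CPM in sham rats and from 14628 through 35596 to 60754 CPM in TBI rats. Sham rats 1 and 3 were below all 16 TBI rats, and sham rats 2 and 4 fell among them (log2 fold change 0.65, SE 0.35, edgeR adjusted p = 0.388). With the library total in the fit the value was −0.70 (SE 0.44), again with group and depth not told apart.

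miR-16-3p had 0, 0, 5 and 6 reads in the D9 sham libraries, which is 0, 0, 24.7 and 16.8 CPM. A library of this depth with 0 reads allows up to 21.3 CPM for sham rat 1 and 18.5 CPM for sham rat 2, counting error only. In TBI rats it ran from 5.50 through 28.1 to 50.9 CPM, and 10 of 16 were above all sham rats (log2 fold change 1.29, SE 0.62, edgeR adjusted p = 0.298). The neighbours miR-144-5p and miR-144-3p had log2 fold changes of 0.78 (SE 0.44) and −0.02 (SE 0.37), miR-451-3p had 0.12 (SE 0.69) and miR-185-3p had 0.22 (SE 0.56). None of these passed the test.

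miR-185-5p rested on 1 library. It had 0, 263, 3 and 0 reads in sham rats 1 to 4 on D9, or 0, 1622, 14.8 and 0 CPM, and from 0 through 4.98 to 11.81 CPM in TBI rats. All 16 TBI rats lay within the sham range (log2 fold change −6.02, SE 0.70, edgeR adjusted p = 7.9e-07). Without sham rat 2 the estimate was 0.24 (adjusted p = 0.904) and 0 miRNAs of the whole matrix were called, and DESeq2 gave no adjusted p for it. In the same library the other arm, miR-185-3p, had 3 reads, and miR-24-3p, which comes from another hairpin, stood at 53601 CPM where the median of the 4 sham libraries was 946 CPM.

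**Figure D2:**
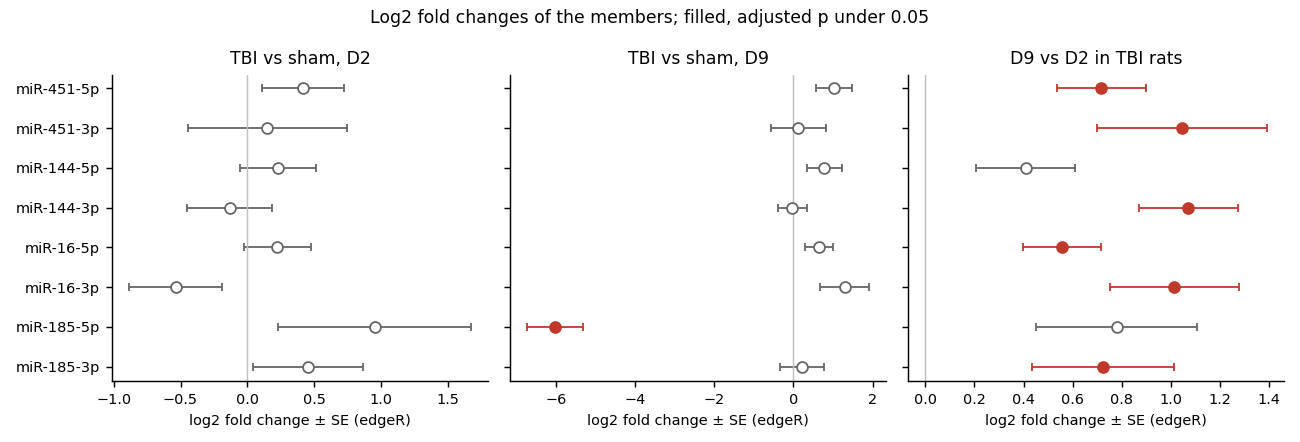
Log2 fold changes of the 8 members with their SE from edgeR, for TBI against sham rats on D2 (left) and D9 (middle) and for D9 against D2 in TBI rats (right), each panel with its own x axis. Filled points passed an adjusted p of 0.05, which were miR-185-5p in the middle panel and 6 of 8 members, all above 0, in the right panel.

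The second question was whether rats that later became epileptic differed. No member was called between TBI+ and TBI− rats on D2 or on D9 (edgeR, 0 of 8 on each day), and over the whole matrix 0.0% of 565 and of 541 miRNAs were called. At an unadjusted p under 0.05 there were again 0 members on each day, beside 6.73% of all miRNAs on D2 and 4.07% on D9, and DESeq2 called 0 members and 0.0% of all. On D2, miR-451-5p ran from 1797 through 3332 to 5207 CPM in TBI+ rats and from 1400 through 3079 to 5891 CPM in TBI− rats (log2 fold change 0.01, SE 0.27). On D9 it ran from 2222 through 5311 to 12197 CPM in TBI+ rats and from 1414 through 5262 to 10873 CPM in TBI− rats (log2 fold change 0.24, SE 0.37). The groups covered each other on both days. With 7 and 9 rats, differences of the size of these errors could not be seen, and larger ones could be missed.

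For miR-16-5p the difference between TBI+ and TBI− rats was −0.16 (SE 0.22) on D2 and 0.27 (SE 0.30) on D9 on the log2 scale. The 8 members ran from −0.16 to 0.39 on D2 and from −0.18 to 0.34 on D9. Set against sham rats, which both groups share as controls, miR-451-5p had a D9 log2 fold change of 1.16 (SE 0.48) in TBI+ and 0.92 (SE 0.46) in TBI− rats. miR-16-5p had 0.80 (SE 0.38) and 0.53 (SE 0.36). In these comparisons 0 of 8 members were called on D2, with 3.19% of 565 miRNAs called for TBI+ and 6.19% for TBI− rats (edgeR). At an unadjusted p under 0.05, 0 members stood beside 16.5% and 15.9% of all miRNAs, and with DESeq2 0 stood beside 6.02% and 7.26%. On D9 only miR-185-5p was called (log2 fold change −5.83, SE 0.92, and −6.17, SE 0.85), where 1.85% and 4.81% of 541 were called, and again not without sham rat 2.

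The clearest change was between the days in the injured rats. In the 16 TBI rats, 6 of the 8 members rose from D2 to D9 in a fit with the rat as a block (edgeR, adjusted p under 0.05) and 0 fell. The libraries of a rat were matched by the group and number in the titles. Of all 581 miRNAs, 12.9% were called higher on D9, 15.0% lower and 27.9% in either direction. DESeq2 called 6 members too, beside 29.1% of all miRNAs. The 6 were both arms of miR-451 and of miR-16, miR-144-3p and miR-185-3p. The median log2 fold change over the 8 members was 0.75, beside 0.03 over all 581 miRNAs.

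Among them, miR-451-5p was higher on D9 in 11 of 16 TBI rats. Its levels went from 1400, 3206 and 5891 CPM (lowest, median and highest on D2) to 1414, 5286 and 12197 CPM on D9 (log2 fold change 0.72, SE 0.18, edgeR adjusted p = 0.000516). The low end of the range stayed in place and the upper end moved. Of TBI+ rats 5 of 7 and of TBI− rats 6 of 9 had the higher level on D9.

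Its rare partner arm miR-451-3p rose by 1.05 on the log2 scale (SE 0.35, edgeR adjusted p = 0.0119), from a median of 4.58 to 10.6 CPM, and was higher in 11 of 16 rats. Reads of this arm numbered 124 over all TBI libraries on D2 and 254 on D9. Over all settings its adjusted p (edgeR or DESeq2) ran from 0.0119 to 0.069, so the call did not hold in each.

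More rats shared the direction of miR-16-5p, which was higher on D9 in 14 of 16 TBI rats, 6 of 7 TBI+ and 8 of 9 TBI−. Its median went from 21499 to 35596 CPM (log2 fold change 0.56, SE 0.16, edgeR adjusted p = 0.00303). miR-16-3p went from 12.8 to 28.1 CPM (log2 fold change 1.01, SE 0.26, edgeR adjusted p = 0.000814) and was higher in 13 of 16 rats, among them 9 of 9 TBI− and 4 of 7 TBI+ rats. Whether the TBI− and TBI+ rats differed in this change was not tested.

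The lowest adjusted p of all members was that of miR-144-3p, which rose by 1.07 on the log2 scale (SE 0.20, edgeR adjusted p = 1.9e-06) and was higher in 12 of 16 rats. In the TBI rats its levels were 85.3, 245 and 614 CPM (lowest, median and highest) on D2 and 228, 488 and 1376 CPM on D9. The other arm of the same hairpin, miR-144-5p, had 0.41 (SE 0.20, edgeR adjusted p = 0.118), with medians of 228 and 299 CPM, and did not pass. miR-185-3p rose by 0.73 (SE 0.29, edgeR adjusted p = 0.0449), the weakest of the calls, which was lost with 3 of the other scalings, with filterByExpr, with the run term and without TBI+ rat 7 or TBI− rats 2 and 4, and miR-185-5p had 0.78 (SE 0.33, edgeR adjusted p = 0.0604).

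All 8 estimates stayed above 0 in every alternative tried. The library total as a term left 6 members called, beside 162 of all 581 miRNAs. With the run of library numbers as a term 6 were called, beside 141 of 581. They were not the same 6, since the call of miR-185-3p was lost there. Leaving out TBI+ rat 7, which had the highest miR-451-5p on D9, left 5, beside 155 of 578 miRNAs. Leaving out TBI− rats 2 and 4 gave 7, among them miR-144-5p (0.49, edgeR adjusted p = 0.0474) and miR-185-5p (0.90, edgeR adjusted p = 0.0202). Both arms were lowest on D9 in these rats among the TBI rats, so leaving them out favoured a rise. The D2 and D9 libraries of a rat came from the same run in only 2 TBI rats, and in both of them 6 members were higher on D9, while miR-144-3p and miR-185-5p were higher in 1 and lower in 1.

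**Figure D3:**
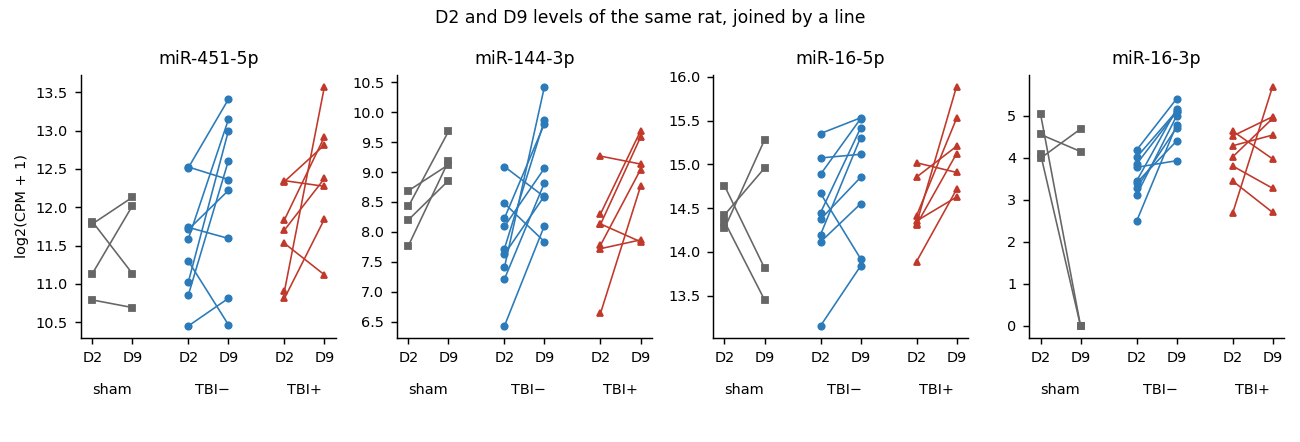
Levels of miR-451-5p, miR-144-3p, miR-16-5p and miR-16-3p as log2(CPM + 1) on D2 and D9, with a line joining the libraries of the same rat, in 4 sham, 9 TBI− and 7 TBI+ rats. Most TBI lines rise, whereas sham lines go both ways except for miR-144-3p, where all 4 rise.

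In the 4 sham rats the same fit called 1 of 8 members, miR-185-5p (log2 fold change 5.21, SE 1.07, edgeR adjusted p = 0.000474), and 4.82% of all 581 miRNAs. The D2 sham libraries held 0 to 6 reads of it, so the size of this change is no measurement, and the call was lost without sham rat 2. miR-451-5p was higher on D9 in 2 of 4 and lower in 2 of 4 sham rats (log2 fold change 0.13, SE 0.35), and miR-16-5p likewise (−0.06, SE 0.33). miR-144-3p, at 343, 294, 217 and 411 CPM on D2, was higher in all 4 sham rats on D9, at 818, 463, 579 and 556 CPM (log2 fold change 0.95, SE 0.40, edgeR adjusted p = 0.162). The estimate was close to that of the TBI rats. All D2 sham libraries were of 1 run of library numbers, and all D9 sham libraries were of another and shallower. Day, run and depth therefore cannot be told apart among the sham rats alone.

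Whether the change between the days differed between TBI and sham rats was tested directly. miR-185-5p alone was called (log2 difference −4.43, SE 1.11, edgeR adjusted p = 0.00769), where 2.93% of 581 miRNAs were, and again not without sham rat 2. miR-16-3p had the next largest difference, 1.95 (SE 0.71, edgeR adjusted p = 0.140), which ran from 1.52 without sham rat 1 to 2.79 without sham rat 3 and was 0.84 with the run of library numbers as a term. miR-451-5p had 0.58 (SE 0.39, edgeR adjusted p = 0.599) and miR-16-5p 0.61 (SE 0.36, edgeR adjusted p = 0.50). The rise in TBI rats is therefore not shown to differ from the change in sham rats, which went both ways among the members.

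The hairpins of the neighbouring pair are shown because the reads of miR-144 were divided between both arms, in a proportion that differed between the days, while those of miR-451 came nearly all from 5p. They are RefSeq sequences (GRCr8), 5′ to 3′, and the capitals are the mature arms, 5p first.
Mir144: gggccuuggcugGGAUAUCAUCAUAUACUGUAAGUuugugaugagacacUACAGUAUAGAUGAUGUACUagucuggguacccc
Mir451a: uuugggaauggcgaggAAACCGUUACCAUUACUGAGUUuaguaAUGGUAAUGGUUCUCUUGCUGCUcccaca
In TBI rats the share of 5p among miR-144 reads was 51.0 ± 9.81% on D2 and 42.0 ± 17.2% on D9 (SD, n = 16). It was lower on D9 in 11 of 16 rats, with a mean difference of −9.07 percentage points (exact sign-flip permutation test, two-sided, p = 0.0294, chosen after seeing the data). In TBI+ rats it was 52.1 ± 6.34% and 44.4 ± 15.4% (SD, n = 7, p = 0.141 by the same exact test), and in TBI− rats 50.2 ± 12.2% and 40.1 ± 19.2% (SD, n = 9, exact p = 0.129). Sham rats had 46.5, 41.2, 48.6 and 41.7% on D2 and 19.0, 45.3, 18.2 and 32.3% on D9, and 4 rats cannot reach an exact p below 0.125.

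This share moved with the depth on D9. The lowest values among TBI rats, 7.30% and 12.8%, were those of TBI− rats 2 and 4, whose D9 libraries had 332161 and 491342 reads. The highest, 68.5%, was that of TBI+ rat 7 with 2083862 reads. Over the 16 TBI rats the share and the log2 library total had r = 0.787 (adjusted p = 0.000740) and rho = 0.785 (adjusted p = 0.00100), by permutation tests adjusted over both days and chosen after seeing the data. Without the 2 totals farthest from the median r was 0.613, and within the 8 TBI libraries of 1 run it was 0.979. On D2, r was 0.389 and rho 0.438 (adjusted p = 0.138 and 0.0932, permutation tests). The part of depth in the change between the days was not tested for the share.

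**Figure D4:**
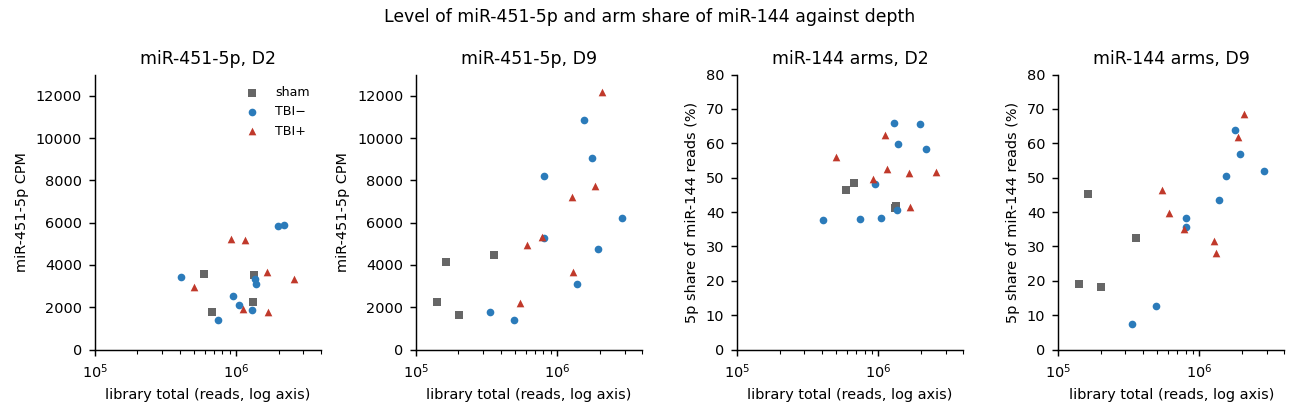
CPM of miR-451-5p (left panels) and the 5p share of miR-144 reads in percent (right panels) against the library total on a log axis, on D2 and D9, with 1 point per rat. On D9 the sham libraries lie between 140636 and 358202 reads, TBI− rats 2 and 4 with the shallowest TBI libraries are lowest in both measures among TBI rats, and TBI+ rat 7 with 2083862 reads is highest in both.

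The third question was which members varied together among the 16 TBI rats of a day. The level of miR-451-5p was compared with each of the other 7 on both days, 14 pairs in all, on log2(CPM + 1), with permutation tests of 100000 resamples adjusted over the 14. On D9 it went with miR-16-5p at r = 0.964 and rho = 0.974, and with miR-144-5p at r = 0.893 and rho = 0.903 (adjusted p = 7e-05 for all 4, permutation tests, from the smallest p that these permutations can give, 1e-05). On D2 the values were r = 0.814 (adjusted p = 0.000245) and rho = 0.706 (adjusted p = 0.0110) for miR-16-5p, and r = 0.878 and rho = 0.879 for miR-144-5p (adjusted p = 9.33e-05 for both), again by permutation.

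These relations stayed without the 2 rats farthest from the median of miR-451-5p. On D9, r was then 0.941 for miR-16-5p and 0.809 for miR-144-5p, and on D2 it was 0.726 and 0.832. Within 1 run of library numbers r was 0.986 and 0.907 on D9 (n = 8) and 0.778 and 0.936 on D2 (n = 9). The levels of a library share its total and its depth.

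For miR-144-3p, cut from the same hairpin as miR-144-5p, no such relation passed the test. It had r = 0.491 and rho = 0.421 with miR-451-5p on D2 (adjusted p = 0.110 and 0.168, permutation tests) and r = −0.294 and rho = −0.179 on D9 (adjusted p = 0.343 and 0.547, permutation tests). Within 1 run the D9 value was −0.754 (n = 8), and without the 2 farthest rats it was 0.206, so that it had no stable sign. Whether the correlations of the arms differ was not tested. The 2 farthest rats were TBI− rats 2 and 4, which had the lowest levels of miR-451-5p and the shallowest libraries.

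miR-185-5p passed on D9 by r alone (r = 0.695, adjusted p = 0.00907, against rho = 0.555, adjusted p = 0.0771, permutation tests), and r fell to 0.287 without the 2 farthest rats, on which the relation rests. For miR-16-3p r was 0.50 on D2 and 0.438 on D9, and for miR-451-3p 0.342 and 0.474. For miR-185-3p it was 0.188 and −0.02. None of these passed (lowest adjusted p of r 0.110, permutation tests).

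**Figure D5:**
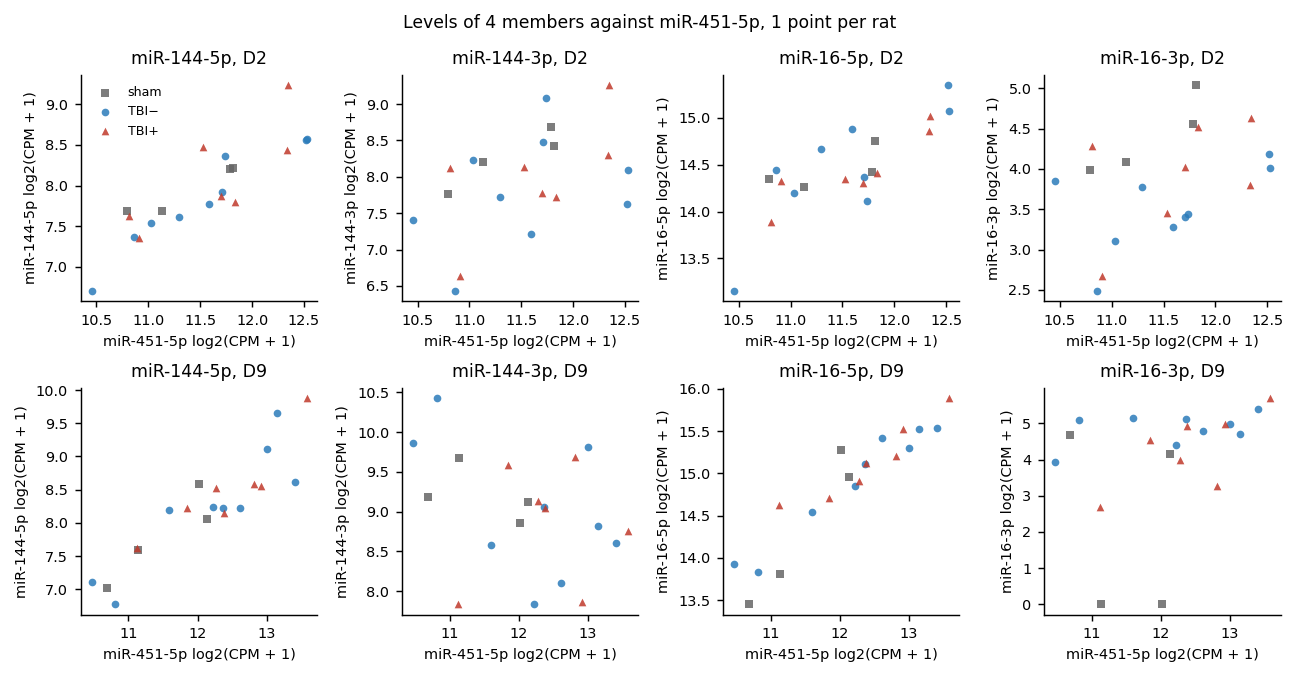
Levels of miR-144-5p, miR-144-3p, miR-16-5p and miR-16-3p against miR-451-5p, all as log2(CPM + 1), on D2 (top) and D9 (bottom), with 1 point per rat. miR-16-5p and miR-144-5p rise with miR-451-5p on both days, while miR-144-3p has no common direction on D9 (r = −0.294 in TBI rats).

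The ratio of miR-451-5p to miR-23a-3p, a miRNA that red cells hold little of, is in common use as an index of red cell content. Its counts gave ratios of 1.15, 0.566, 0.412 and 0.870 in sham rats 1 to 4 on D2 and of 0.433, 0.897 and 1.86 (lowest, median and highest) in TBI rats. On D9 they were 2.29, 2.12, 2.63 and 1.80 in sham rats and 1.04, 2.38 and 5.23 in TBI rats. The groups overlapped on both days (difference of log2 ratios 0.25, p = 0.502 on D2 and 0.15, p = 0.651 on D9, exact permutation tests, two-sided, n = 16 and 4). TBI+ and TBI− rats differed by 0.00 on D2 and 0.04 on D9 (exact permutation p = 0.9998 and 0.895, two-sided), and the adjusted p over these 4 tests was 0.9998 for each.

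The index was higher on D9 in all 20 rats, 16 of 16 TBI and 4 of 4 sham, by a median factor of 2.58 in TBI rats and 2.90 in sham rats. The denominator moved too, since miR-23a-3p fell in TBI rats (log2 fold change −0.81, SE 0.18, edgeR adjusted p = 7.6e-05) and in sham rats (−1.51, SE 0.37, edgeR adjusted p = 0.00282). The numerator miR-451-5p had 0.72 (SE 0.18) in TBI and 0.13 (SE 0.35) in sham rats. It was higher on D9 in only 11 of 16 TBI and 2 of 4 sham rats, so a higher index was not always a higher miR-451-5p. miR-28-3p, which the study used as an endogenous control, had −0.05 (SE 0.19) in TBI and −0.34 (SE 0.38) in sham rats and was not called.

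Other miRNAs abundant in red cells and their precursors were listed to set beside the members, and 14 of the 16 found in the matrix had reads. No miRNA of that list was called between TBI and sham rats on either day (edgeR, 0 of 14, where 6.19% of all miRNAs were called on D2 and 3.51% on D9). At an unadjusted p under 0.05 there were 1 on D2, beside 18.2% of all, and 2 on D9, beside 15.9%. From D2 to D9 in TBI rats, 7 of the 14 rose and 3 fell, beside 12.9% and 15.0% of all 581 miRNAs, and the median log2 fold change was 0.52, beside 0.03 over all. By adjusted p the leading ones were miR-107-3p (−0.92, 2.9e-06) and miR-103-3p (−0.85, 8.2e-06), which fell, miR-96-5p (−2.31, 8.3e-05), which fell too, and miR-19b-3p (0.85, 0.000148), a miR-17-92 cluster member, which rose. miR-103-3p and miR-107-3p have nearly the same sequence, and reads may be split between them. In sham rats both also fell (−1.09 and −1.14, edgeR adjusted p = 0.0353 for each), and no other miRNA of the list was called there.

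Of the 4 miRNAs with the seed of miR-16-5p, only miR-15b-5p rose from D2 to D9 in TBI rats (log2 fold change 0.55, SE 0.20, edgeR adjusted p = 0.0255). The median of the 4 was −0.04. The other 3, miR-195-5p (−0.10, SE 0.22), miR-322-5p (0.01, SE 0.21) and miR-497-5p (−0.25, SE 0.20), did not pass the test.

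Markers of other blood cells moved between the same libraries. The 6 white blood cell miRNAs summed to between 38945 and 71647 CPM in sham and between 13295 and 51960 CPM in TBI rats on D2, and to between 16619 and 93150 and between 17908 and 63651 CPM on D9. In TBI rats 4 of the 6 rose from D2 to D9 and 0 fell, beside 12.9% and 15.0% of all miRNAs. On D2, 2 of 6 were lower in TBI than in sham rats and 0 were higher, where 6.19% of all miRNAs were called in either direction. Of the platelet and vessel wall miRNAs, 4 of 5 had reads, and between the days in TBI rats 1 rose and 1 fell. The liver miRNA miR-122-5p had 0 reads in all 40 libraries. The part of these cells in the change of the members was not tested.

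Over all 40 libraries, the miRNAs with levels most like miR-451-5p were ranked by Spearman's rho of CPM among 269 miRNAs with a mean of at least 10 CPM, as a description, with each rat in it on both days. First was miR-15b-5p with rho = 0.928, followed by miR-93-5p with 0.926, both of them on the list of other red cell miRNAs. The members miR-16-5p (0.911) and miR-144-5p (0.893) came at places 3 and 4, and miR-186-5p (0.887), miR-26a-5p (0.857) and miR-301a-3p (0.846) next. miR-144-3p stood at place 92 (0.219) and miR-185-3p at place 91 (0.222). On D2 and D9 alone rho was 0.833 and 0.947 for miR-15b-5p, 0.808 and 0.959 for miR-93-5p and 0.871 and 0.874 for miR-144-5p, so that miR-15b-5p was first on neither day.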

How the data were processed

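Small RNA libraries (TruSeq) from plasma were sequenced on an Illumina HiSeq. Per the study's methods the authors trimmed reads with Trimmomatic 0.36, aligned them with Bowtie2 to the rat genome Rno6 and counted mature miRNAs of miRBase with featureCounts. The deposited values are raw read counts of 752 miRNAs with no scaling, and 581 rows held a read. The treatment of multimapping reads is not given in the sources used here, and floors of 3 reads cover counting error only.

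CPM was the count over the library total. Each day's 20 libraries were fitted with edgeR's quasi-likelihood test (TMM, Benjamini-Hochberg over all miRNAs with a read). The days were compared over all 40 libraries with the rat as a block. Titles give a group, a number and a day, and libraries with the same group and number were taken as the same rat. Deviations of a rat's D2 and D9 libraries from their group means correlated between −0.345 and 0.403 (median −0.06, 5 of 20 above 0.1), so they did not show the pairing. SE was the log2 fold change over the root of F. Levels and correlations used log2(CPM + 1). The test was checked on simulated data, and 0 pairs of libraries were identical. 

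Alternatives were DESeq2, other scalings, filterByExpr, blocks, runs of library numbers and left-out rats. Terms for run and depth, left-out TBI rats, the miR-144 share and relations with depth were chosen after seeing the data. Members and lists were chosen with earlier results of these data known. Named were all members, at most 4 called miRNAs per list and comparison by adjusted p, the 5 non-members most like miR-451-5p, and miR-23a-3p and miR-28-3p; miR-24-3p was added after its value was seen. The names of all 8 members were found in RefSeq (GRCr8), whose positions served only to find neighbouring genes. Fits ran in edgeR 4.0.16 and DESeq2 1.42.0 under R 4.3.3, permutation tests in scipy 1.17.1 under Python 3.11.15, with tables and plots by numpy 2.4.6, pandas 2.3.3 and matplotlib 3.10.9.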

Additional observations from a re-analysis of the deposited data

Results flagged for a closer look

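The level of each member was examined for a rat far from the rest of its group, in 48 groups of 4, 7 or 9 rats. By chance about 1 in 20 such groups would be picked, and 4 were. In sham rats on D9, rat 2 had miR-185-5p at 1622 CPM (263 reads) with the next at 14.8 CPM. In TBI+ rats on D9, rat 7 had miR-144-5p at 940.6 CPM with the next at 381 CPM, and miR-185-3p at 33.6 CPM with the next at 16.3 CPM. In TBI+ rats on D2, rat 2 had miR-144-3p at 614 CPM with the next at 314 CPM.

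The change from D2 to D9 differed between TBI and sham rats for miR-185-5p (log2 difference −4.43, edgeR adjusted p = 0.00769), and this rested on the same library of sham rat 2, without which the difference was 0.23.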

How the results depend on the processing

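The 6 members called from D2 to D9 in TBI rats kept their direction in every alternative, and 4 to 7 members were called. The other calls were of miR-185-5p. The count of called members fell to 0 with filterByExpr, which removed miR-185-5p, in TBI, TBI+ and TBI− rats against sham rats on D9, in sham rats between the days and in the difference of the changes. Of all miRNAs, filterByExpr called 19, 3 and 18 of 275 in the D9 comparisons and 7 and 1 of 356 in the last 2. DESeq2 and miR-28-3p scaling gave 0 members for the last 2. There DESeq2 called 38 and 18 of all 581 miRNAs, and miR-28-3p scaling 0 and 1. In the 3 D9 comparisons with sham rats DESeq2 called 0 members, beside 26, 11 and 22 of 541, and gave miR-185-5p no adjusted p. Leaving out each sham rat in turn gave 0 to 1 in all 5, with 0 only without sham rat 2. Without that rat, 0 of 541 miRNAs were called in each D9 comparison, and 17 and 24 of 580 in the last 2.

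Among alternatives chosen after seeing the data, the library total as a term gave 0 called members for TBI against sham on D9. It called 0 of all 541 miRNAs there. It turned the log2 fold changes of miR-451-5p to −0.97, miR-451-3p to −1.08, miR-144-5p to −0.95, miR-144-3p to 1.11 and miR-16-5p to −0.70. In that fit group and depth cannot be told apart. Without TBI− rats 2 and 4, 2 members were called, miR-451-5p being added, beside 53 of 540 miRNAs. These rats had the lowest D9 miR-451-5p of the TBI rats, so that addition is no separate support. Without TBI+ rat 7 miR-451-3p was −0.13. The run of library numbers as a term left 0 called members in the difference of the changes, and 0 of all 581 miRNAs. The causes were not tested.

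miR-451-3p on D9 was also −0.086 with DESeq2, −0.068 with RLE, −0.029 with library totals and −0.044 with filterByExpr. With the libraries of 1 run alone, its D2 value was −0.10 and its D9 value −0.41, miR-144-3p was 0.23 on D2, miR-185-3p was −0.34 on D9, and the log2 ratio of miR-451-5p to miR-23a-3p was −0.066 on D9. That D9 ratio was −0.017 with miR-16-5p as numerator. TBI+ against TBI− rats on D2 had a ratio of 0.15 with miR-28-3p as reference, and miR-451-5p was −0.013 with scaling over non-members and −0.020 with filterByExpr. The D9 correlation of miR-451-5p with miR-185-3p was 0.0073 with scaling over non-members.

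Without each sham rat in turn, log2 fold changes for TBI against sham ran from −0.19 to 0.86 for miR-451-3p on D2. On D9 they ran from −0.37 to 0.73 for miR-451-3p, from −0.27 to 0.19 for miR-144-3p and from −6.44 to 0.24 for miR-185-5p (−6.26 to 0.44 in TBI+ and −6.60 to 0.062 in TBI− rats). Between the days in sham rats miR-451-5p ran from −0.14 to 0.28, the difference of the changes of miR-185-5p from −9.30 to 0.23, and the D2 log2 ratio from −0.0027 to 0.49.

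Groups share replicate numbers, but rats with the same number did not deviate together (median correlation −0.04 over 30 pairs, 7 above 0.1), so they share only a number. With it as a block, members' calls did not change, all calls for TBI against sham on D9 went from 19 to 7, and 6 estimates changed sign: miR-144-3p on D2 (0.11) and D9 (0.27), miR-451-3p (−0.41) and miR-185-3p (−0.027) on D9, miR-451-5p in TBI− against sham on D9 (−0.090) and miR-16-5p in TBI+ against TBI− on D2 (0.041). Without the rat as a block, 7 members were called from D2 to D9 in TBI rats, beside 186 of all 581 miRNAs. Depth limits above all the arms near the floor of the D9 sham libraries.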
